A study of Homo sapiens and Mus musculus with 13 samples.

Results

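The genes described here encode proteins of the contractile actomyosin system and a pair of secreted CCN proteins whose transcription responds to it. They are MYLK, MYL9, ACTA2, TAGLN, CNN1, CALD1, TPM1, TPM2, CTGF and CYR61, 10 of the 24523 gene symbols in the FPKM table of 7 MDA-MB-231 libraries. They were given by symbol, and all 10 were among the 12636 genes compared, those averaging 0.5 FPKM or more. FPKM counts sequenced fragments relative to transcript length and to the fragments mapped in a library, so levels of different genes can be set side by side per length.

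MDA-MB-231 is a human triple-negative breast cancer cell line with a mesenchymal shape and high motility. MYLK is among the genes that the study itself picked from these libraries. One search of the study was for migration genes that rose with KDM5C knockdown and were rescued by double knockdown. The study asked what TRIM11, a ubiquitin ligase, and KDM5C, a demethylase of histone H3 lysine 4, do to expression in these cells, alone and together. Every library came from a stable line made with CRISPR/Cas9 lentivirus and puromycin, and a guide against GFP served in the single Control line. TRIM11-KD1 and TRIM11-KD2 carried TRIM11 guides 1 and 2, and KDM5C-KD1 and KDM5C-KD2 carried KDM5C guides 1 and 2. The double knockdown lines DKD1 and DKD2 carried TRIM11 guides 1 and 2, each with KDM5C guide 2, so that 3 lines share KDM5C guide 2 and the single-guide line KDM5C-KD1 is the only one with KDM5C guide 1. Each line was sequenced once, no line stands for a separate culture of another, and the SD between 2 lines of a group therefore holds the difference between guides as well as between lines.

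Myosin light chain kinase (MYLK) phosphorylates the regulatory light chain of non-muscle and smooth muscle myosin, of which MYL9 encodes one form, and this phosphorylation switches on the motor. ACTA2 encodes smooth muscle alpha-actin, and TAGLN (transgelin), CNN1 (calponin), CALD1 (caldesmon), TPM1 and TPM2 (tropomyosins) encode proteins that lie along or cross-link the actin filament. Many of these genes are textbook targets of serum response factor (SRF), which binds the CArG box CCNNNNNNGG with A or T at each N and is activated when actin polymerises and frees its MRTF cofactors. CTGF and CYR61 (also named CCN2 and CCN1) encode matricellular proteins and are the usual readouts of YAP with TEAD factors, which bind GGAATG, and both also respond to SRF.

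The promoter windows of RefSeq (GRCh38.p14, 250 bases before to 50 bases after a start) held entries for MYLK, ACTA2, CNN1, CALD1, TPM1, TPM2 and CTGF, 7 of the 10 genes. MYL9, TAGLN and CYR61 have no entry there. Both strands were searched. An exact CArG box was in 1.3% of all 34796 distinct windows, and a CArG box with at most 1 of its 10 letters off was in 18.9%. GGAATG or its complement CATTCC was in 14%, and 3 or more of them in 0.126%. Stretches that hold such letters are shown with each match in capitals, for SRF in MYLK and ACTA2 and for TEAD in CTGF.
MYLK, CArG box, chr3:123620599-123620678, minus strand: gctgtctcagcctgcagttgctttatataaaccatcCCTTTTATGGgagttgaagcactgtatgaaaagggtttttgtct
ACTA2, CArG boxes with 1 letter off, chr10:88952814-88952923, minus strand: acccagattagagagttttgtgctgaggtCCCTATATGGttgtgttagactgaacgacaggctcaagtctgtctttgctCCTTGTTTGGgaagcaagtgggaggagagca
CTGF, GGAATG, chr6:131951433-131951562, minus strand: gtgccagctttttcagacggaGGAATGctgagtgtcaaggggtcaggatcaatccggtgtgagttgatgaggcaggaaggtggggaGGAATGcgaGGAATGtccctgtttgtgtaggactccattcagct

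The MYLK stretch lies 94 bases before a start that is inside the gene, 10499 bases from its 3′ end. The gene is known to hold an internal promoter for telokin, a short protein that matches the end of the kinase. The ACTA2 matches lie 121 and 71 bases before one of its 2 starts, and the CTGF matches lie 169, 104 and 95 bases before its start. GGAATG or CATTCC was also found once each in the MYLK window, 1 base before the start, in the ACTA2 window that the stretch comes from, 183 bases before its start, and in 2 CALD1 windows, 42 and 194 bases before their starts. None of the windows of CNN1, CALD1, TPM1 and TPM2 held an exact CArG box, and CALD1 held 1-letter-off matches in 2 of its 4 windows. A match describes letters and is no measurement of binding, and FPKM given per gene does not separate the starts of a gene.

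The libraries were checked against markers of the line. All 8 genes listed as high in this line had a mean of at least 1 FPKM, with VIM (vimentin) between 1038 and 1309. Of the 8 genes listed as low in this line, 4 were below 1 FPKM in every library. ESR1 among them reached at most 0.0234, and PGR and KRT5 were listed at 0 throughout. The other 4 had a mean of at least 1 FPKM. ERBB2 stood at 17.8 to 23.7, EPCAM at 4.03 to 12.3, GATA3 at 4.41 to 8.92 and CDH1 at 0.615 to 1.98. Of 11 smooth muscle markers, 9 were below 1 FPKM in every library, and MYOCD, the muscle-specific cofactor of SRF, was listed at 0 throughout. SMTN, at 28.2 to 40.9, and SYNM, at 4.09 to 6.44, made up most of that list's summed level, which ran from 34.4 in KDM5C-KD1 to 46.9 in Control. Of the 9 fibroblast markers with a row of their own, 5 were below 1 FPKM in every library, with DCN and THY1 listed at 0. A mean of at least 1 FPKM was reached by 3. These were PDGFRB at 5.70 to 10.6, COL1A1 at 1.33 to 1.90 and COL1A2 at 0.112 to 6.02. The summed level ran from 7.15 in DKD2 to 17.6 in TRIM11-KD1. KDM5C mRNA was at 30.3 in Control, 18.8 and 22.7 in the DKD lines, and 20.6 and 21.4 in the KDM5C-KD lines. TRIM11 mRNA was at 12.6 in Control, 16.1 and 9.38 in the DKD lines, and 13.4 and 10.6 in the TRIM11-KD lines. The libraries labelled TRIM11-KD1 and DKD1, both with TRIM11 guide 1, thus held no less TRIM11 mRNA than Control, which does not measure the protein.

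The 10 genes did not move as a group. MYLK and TPM1 were higher in both KDM5C-KD lines than in the other lines, and CALD1 was highest in both DKD lines. MYL9, TAGLN and TPM2 differed mainly between the first and second lines of KDM5C-KD and DKD, in the same order in both. CTGF lay below Control and CYR61 above it in all 6 knockdown lines, and Control was also the lowest library in MYLK and TPM1. Control is a single library, and how often it is the extreme library over all genes was not computed. No member passed an adjusted p of 0.05 in any comparison.

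**Figure D1:**
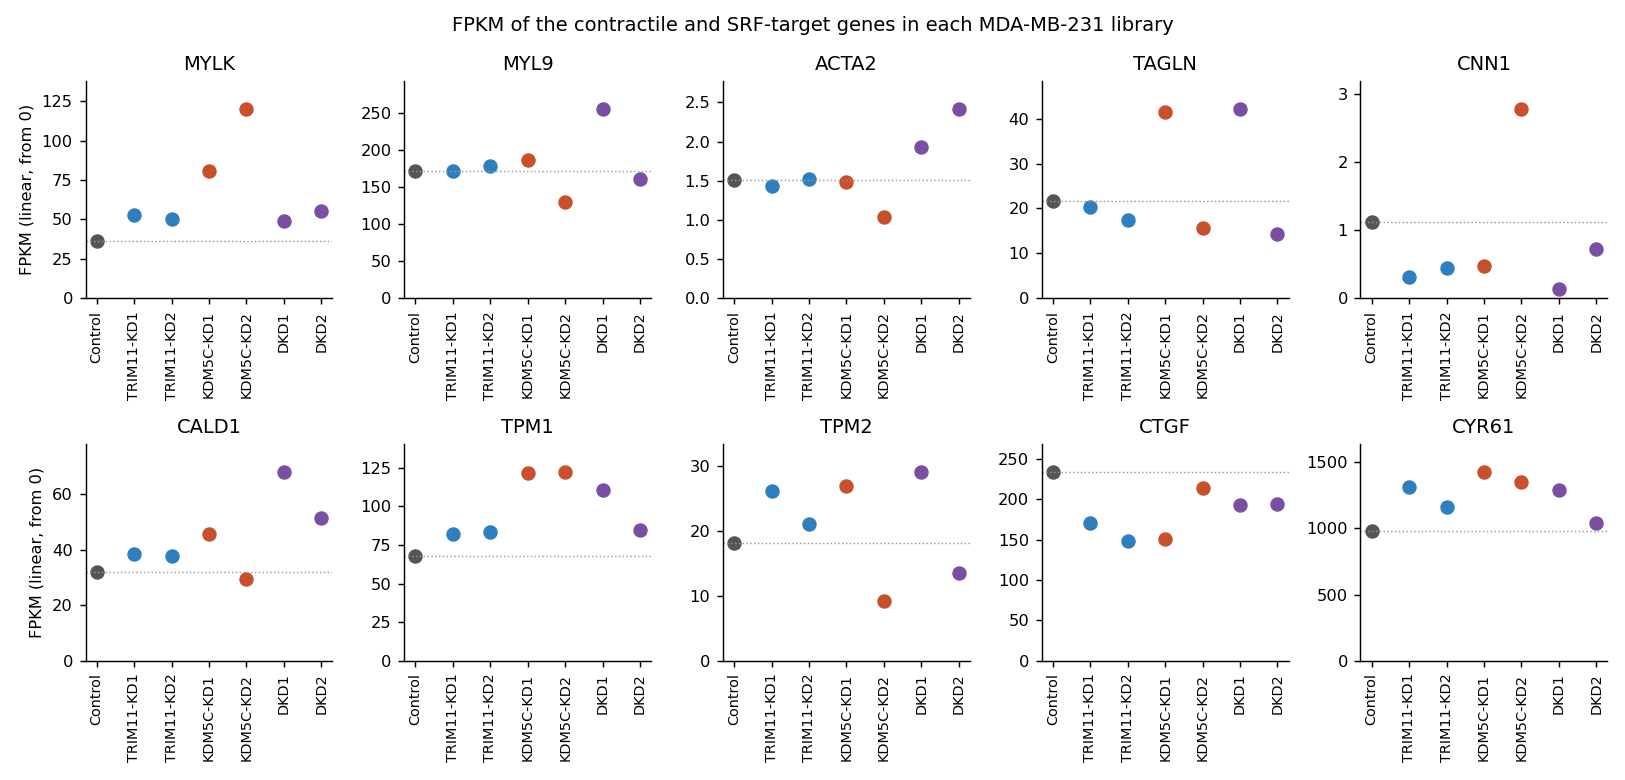
FPKM of each of the 10 genes (vertical axis, linear and starting at 0, a scale for each gene) in the 7 libraries (horizontal axis); each point is 1 library, grey for Control, blue for TRIM11-KD, red for KDM5C-KD and purple for DKD, and the dotted line is the Control level. MYLK stands at 80.9 and 119.9 in the KDM5C-KD lines and at 55.3 or less elsewhere, whereas TAGLN is at 41.4 and 42.1 in KDM5C-KD1 and DKD1 and at 21.7 or less in the other 5 libraries.

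MYLK, on chromosome 3 (hg19, 123328896 to 123603179, minus strand), was at 36.5 FPKM in Control, 52.9 and 50.3 in the TRIM11-KD lines 1 and 2, 80.9 and 119.9 in the KDM5C-KD lines, and 48.8 and 55.3 in the DKD lines. Control was the lowest library and both KDM5C-KD lines lay above all the others. The group means were 51.6 ± 1.87 (SD, n = 2) in TRIM11-KD, 52.1 ± 4.57 in DKD and 100.4 ± 27.6 in KDM5C-KD, so that TRIM11-KD and DKD did not differ beyond their spread. KDM5C-KD1 was 2.22 times and KDM5C-KD2 3.29 times Control, against 1.34 and 1.52 times in the DKD lines and 1.45 and 1.38 times in the TRIM11-KD lines. Among the 3 lines with KDM5C guide 2, the single knockdown was at 119.9 and the double knockdowns at 48.8 and 55.3. The antisense gene MYLK-AS1, which overlaps MYLK, was at 0.421 to 1.63 FPKM, and in libraries without strand its reads cannot be told apart from those of MYLK where they overlap.

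MYL9, on chromosome 20 (35169900 to 35179850, plus strand), was the third most abundant of the 10 genes by its mean and nearly level between Control and TRIM11-KD. It was at 172.1 FPKM in Control, 172.1 and 178.1 in the TRIM11-KD lines, 185.9 and 129.3 in the KDM5C-KD lines, and 254.7 and 160.3 in the DKD lines. The KDM5C-KD and DKD ranges overlapped, and DKD1 was the one library clearly above the rest. Over the 7 libraries the Pearson correlation of log2(FPKM + 1) between MYLK and MYL9 was -0.54.

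TPM1, on chromosome 15 (63334819 to 63364114, plus strand), was at 67.6 FPKM in Control, 82.1 and 83.1 in the TRIM11-KD lines, 121.9 and 122.3 in the KDM5C-KD lines, and 110.9 and 84.6 in the DKD lines. As with MYLK, Control was lowest and the KDM5C-KD lines highest, but here the KDM5C-KD lines differed by 1.003-fold, and DKD1 came close to them. They were 1.80 and 1.81 times Control. The antisense gene TPM1-AS overlaps TPM1, and its reads cannot be told apart there either.

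TPM2, on chromosome 9 (35681989 to 35690053, minus strand), encodes the other tropomyosin and did not follow TPM1. Its FPKM was 18.1 in Control, 26.1 and 21.0 in TRIM11-KD, 26.9 and 9.24 in the KDM5C-KD lines, and 29.1 and 13.5 in the DKD lines. KDM5C-KD2 and DKD2 were the lowest libraries, below Control, and KDM5C-KD1 and DKD1 the highest. The lines of KDM5C-KD thus differed by 2.91-fold and those of DKD by 2.15-fold, and both group ranges enclosed the Control level.

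TAGLN, on chromosome 11 (117070086 to 117078180, plus strand), showed the same order in KDM5C-KD and DKD, with lines that differed by 2.67-fold and 2.95-fold. It was at 21.7 FPKM in Control, 20.4 and 17.4 in TRIM11-KD, 41.4 and 15.5 in the KDM5C-KD lines, and 42.1 and 14.3 in the DKD lines. KDM5C-KD1 and DKD1 were 1.91 and 1.94 times Control and KDM5C-KD2 and DKD2 were 0.717 and 0.659 times Control. These first lines do not share a KDM5C guide, since DKD1 carried guide 2, and among the 3 lines with KDM5C guide 2 TAGLN ran from 14.3 to 42.1.

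CALD1, on chromosome 7 (134429003 to 134655480, plus strand), was at 31.9 FPKM in Control, 38.6 and 37.7 in TRIM11-KD, 45.6 and 29.4 in the KDM5C-KD lines, and 68.0 and 51.6 in the DKD lines. Both DKD lines lay above every other library, at 2.13 and 1.62 times Control. Within KDM5C-KD the first line was again above the second, by 1.55-fold, on either side of Control.

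ACTA2 and CNN1, the most muscle-restricted members, were present only at low levels. ACTA2, on chromosome 10 (90694831 to 90751096, minus strand), was at 1.505 FPKM in Control, 1.43 and 1.52 in TRIM11-KD, 1.49 and 1.03 in KDM5C-KD, and 1.93 and 2.41 in DKD, the 2 highest values of the set. CNN1, on chromosome 19 (11649582 to 11661138, plus strand), was at 1.11 in Control, 0.308 and 0.438 in TRIM11-KD, 0.470 and 2.78 in KDM5C-KD, and 0.133 and 0.722 in DKD. CNN1 was below Control in 5 of the 6 knockdown lines and highest in KDM5C-KD2, and its highest value was 20.9 times its lowest. Read numbers behind these low values are unknown. ACTA2 is similar to other actin genes over its coding sequence, and the antisense gene ACTA2-AS1 overlaps it. The ratios of ACTA2 and CNN1 thus carry an error that cannot be given.

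CYR61, on chromosome 1 (86046444 to 86050272, plus strand), was the most abundant of the 10 genes and the least variable. Its FPKM was 978.3 in Control, 1310 and 1162 in TRIM11-KD, 1425 and 1349 in KDM5C-KD, and 1289 and 1043 in DKD. All 6 knockdown lines were above Control, by 1.07 to 1.46 times, the KDM5C-KD lines were the highest, and the TRIM11-KD and DKD ranges overlapped. CTGF, on chromosome 6 (132269316 to 132272512, minus strand), lay on the other side of Control. It was at 233.8 in Control, 170.2 and 148.9 in TRIM11-KD, 150.6 and 214.6 in KDM5C-KD, and 193.1 and 193.9 in DKD, with all 6 knockdown lines at 0.637 to 0.918 times Control. The correlation of CTGF with CYR61 over the 7 libraries was -0.48.

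**Figure D2:**
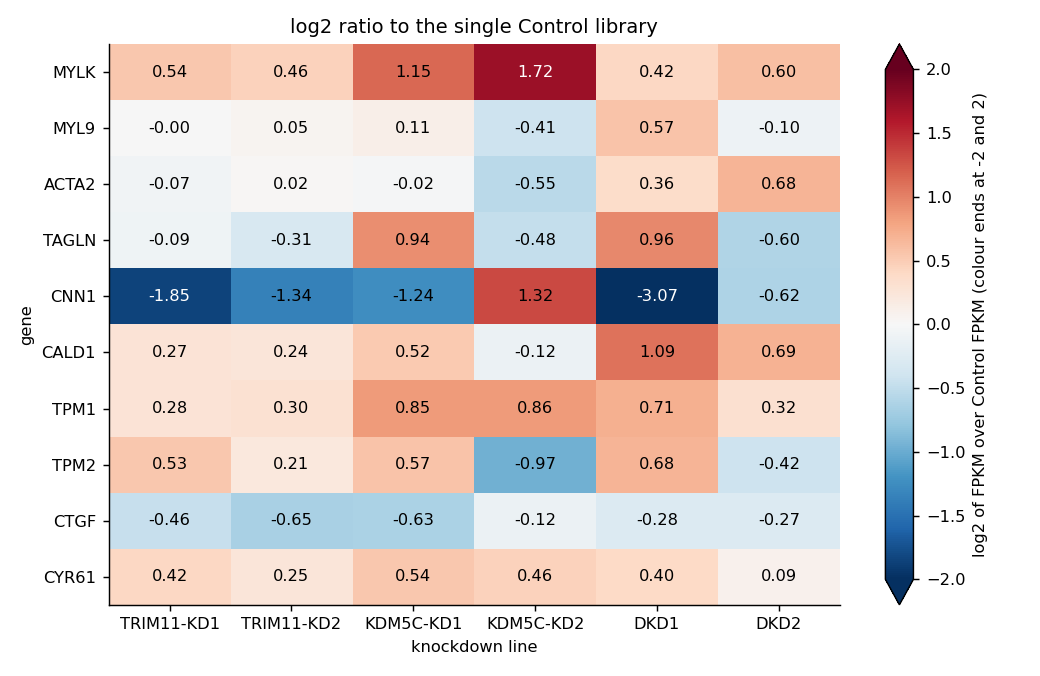
log2 of each gene's FPKM over that of the single Control library (colour and printed value, red above and blue below Control, colours ending at -2 and 2) for the 10 genes in rows and the 6 knockdown lines in columns. MYLK and TPM1 are red in both KDM5C-KD columns, while TAGLN is 0.94 and 0.96 in KDM5C-KD1 and DKD1 but -0.48 and -0.60 in KDM5C-KD2 and DKD2.

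Because Control is 1 library, a gene was counted as changed against it only if the 2 lines of a knockdown each exceeded its FPKM by 1.5-fold or each fell short of it by 1.5-fold, with no p-value. The 3 comparisons share that library. In KDM5C-KD, 2 of 10 members, MYLK and TPM1, were higher, against 5.22% of all genes compared, and 0 were lower, against 3.97%. The study had picked MYLK from these same libraries, and the members were chosen with earlier results known. This count is therefore a description and no independent support. In DKD, CALD1 was higher, against 5.71%, and CNN1 was lower, against 4.87%. In TRIM11-KD no member was higher, against 3.25%, and CNN1 was lower, against 2.58%. The counts for CNN1 rest on levels near or below 1 FPKM, and both were 0 with a pseudocount of 1 added. CYR61 in KDM5C-KD, at 1.46 and 1.38 times Control, did not reach the fold, and DKD1 held TPM1 and TPM2 at 1.64 and 1.61 times Control while DKD2 did not reach it.

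Over the 10 genes the median log2 ratio to Control was 0.53 and -0.12 in the KDM5C-KD lines, 0.49 and -0.00475 in the DKD lines, and 0.14 and 0.13 in the TRIM11-KD lines. The medians of all genes compared lay between -0.0173 and 0.00111. The members above Control numbered 7 and 4 in the KDM5C-KD lines, 8 and 5 in the DKD lines, and 5 and 7 in the TRIM11-KD lines. The difference between the lines of a group, taken as the absolute log2 difference of FPKM + 1, had a member median of 0.54 in KDM5C-KD and 0.39 in DKD, where that of all genes was 0.20 and 0.19. In TRIM11-KD it was 0.10 among members and 0.17 among all genes. This is a description of 2 lines a group. Beside the high MYL9, TAGLN and TPM2 of KDM5C-KD1 and DKD1, the summed smooth muscle markers of these libraries were at 34.4 and 40.2 FPKM, with 46.9 in Control and 38.6 and 45.7 in KDM5C-KD2 and DKD2. The summed fibroblast markers were at 12.8 in KDM5C-KD1 and 14.3 in DKD1, above Control at 10.97. They were at 9.51 in KDM5C-KD2 and 7.15 in DKD2, below Control. MYL9, TAGLN and TPM2 lay on the same sides of Control in these lines. KDM5C-KD2 was above DKD2 in this sum and in TAGLN, but below it in MYL9 and TPM2. The fibroblast sum was highest in TRIM11-KD1, at 17.6. The part of both marker sums in the result was not tested.

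Differences between the knockdown groups were estimated with limma on log2(FPKM + 1) over the 6 knockdown libraries, fitted across all 12636 genes with Benjamini-Hochberg adjustment. Between KDM5C-KD and DKD, 0% of genes and no member passed an adjusted p of 0.05. At an unadjusted p under 0.05, 11.7% of all genes and 3 members, MYLK, ACTA2 and CALD1, were counted. MYLK was higher in KDM5C-KD by 0.91 (SE 0.196, adjusted p = 0.379), CALD1 was lower by a difference of -0.68 (SE 0.232, adjusted p = 0.389) and ACTA2 was lower by a difference of -0.49 (SE 0.189, adjusted p = 0.411). In these 3 genes every KDM5C-KD line lay on the same side of both DKD lines, as also in TPM1 and CYR61, which were not counted. The share of all genes separated in this way was not computed. The unadjusted limma p of MYLK stayed under 0.05 with each of the 6 lines left out in turn. MYLK was among the genes the study picked from these same libraries, so this stability is no independent support. That of CALD1 was over 0.05 in 2 of these 6 fits, at 0.124 without KDM5C-KD2 and 0.128 without DKD1, and that of ACTA2 in 5 of 6, all but the fit without KDM5C-KD1, at up to 0.175. The member median was -0.029, with 5 genes higher and 5 lower, and that of all genes was -0.000833.

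Between KDM5C-KD and TRIM11-KD, again 0% of genes passed the adjusted threshold, and 9.82% of genes and 2 members, MYLK and TPM1, had an unadjusted p under 0.05. MYLK was higher in KDM5C-KD by 0.92 (SE 0.196, adjusted p = 0.494) and TPM1 by 0.56 (SE 0.147, adjusted p = 0.494). In each, both KDM5C-KD lines lay above both TRIM11-KD lines, as also in CNN1 and CYR61, which were not counted. The share of all genes separated in this way was not computed. The member median was 0.17, beside 0.00691 for all genes.

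Between DKD and TRIM11-KD, which carry the same TRIM11 guides, 0% of genes passed the adjusted threshold and 7.03% had an unadjusted p under 0.05, CALD1 alone among the members. CALD1 was higher in DKD by 0.62 (SE 0.232, adjusted p = 0.704), and its unadjusted limma p was 0.169 without DKD1 and 0.0995 and 0.114 without TRIM11-KD1 and TRIM11-KD2. MYLK differed by 0.0097 (SE 0.196, adjusted p = 0.994). Among the members, 8 had a positive difference, but the standard errors of TAGLN and TPM2 were 0.592 and 0.53, which the gaps between their lines set.

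**Figure D3:**
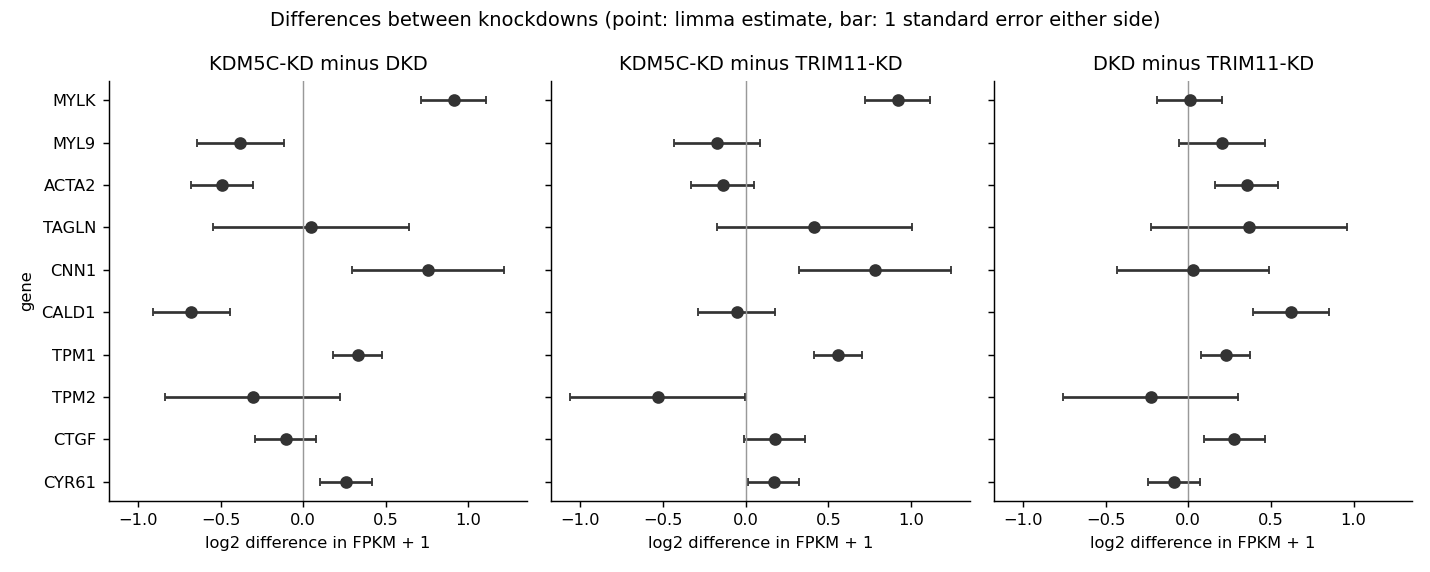
Differences between knockdown groups on the log2(FPKM + 1) scale (horizontal axis) for the 10 genes (vertical axis); points are limma estimates over 6 libraries and bars 1 standard error either side, and 0 is marked by a line. MYLK lies at 0.91 and 0.92 in the comparisons of KDM5C-KD with DKD and with TRIM11-KD and near 0 between DKD and TRIM11-KD, whereas the bars of TAGLN, CNN1 and TPM2 are the widest.

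All 7 libraries were also fitted by whether a KDM5C guide and a TRIM11 guide were present, by limma with the effects of both added. For the KDM5C guide 0.00791% of genes passed the adjusted threshold, which is 1 gene and no member, and 11.1% of genes and 2 members, CALD1 and TPM1, had an unadjusted p under 0.05. TPM1 was higher with the guide by 0.47 (SE 0.156, adjusted p = 0.397), CALD1 by 0.45 (SE 0.184, adjusted p = 0.435) and MYLK by 0.57 (SE 0.291, adjusted p = 0.519). For the TRIM11 guide 0% of genes passed, and 10.7% of genes and 1 member, CALD1, had an unadjusted p under 0.05. CALD1 was higher with the TRIM11 guide by 0.51 (SE 0.184, adjusted p = 0.449).

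With a term for departure from additivity, 0.0158% of genes passed the adjusted threshold and no member did, and 5.49% of genes and 2 members, MYLK and TPM1, had an unadjusted p under 0.05. For MYLK this term was -1.40 (SE 0.31, limma adjusted p = 0.879), that is, DKD was lower than the sum of the changes in the single knockdowns by that much on the log2 scale. For TPM1 it was -0.62 (SE 0.233, adjusted p = 0.879). The Control side of this term is 1 library. Since the study picked MYLK from these same libraries, the term of MYLK is no independent support.

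The members fell into patterns that can be read from their correlations over the 7 libraries. These are given as a description: the libraries share 1 table and one Control, and lines of the same guide are not independent. Of 45 pairs, 23 had a positive and 22 a negative Pearson correlation, with a median of 0.048. MYLK, TPM1 and CYR61 ran together, with 0.81 for MYLK and TPM1, 0.84 for TPM1 and CYR61 and 0.69 for MYLK and CYR61. MYL9, TAGLN and TPM2 ran together, with 0.84 for MYL9 and TPM2, 0.78 for MYL9 and TAGLN and 0.76 for TAGLN and TPM2. CALD1 was at 0.80 with MYL9 and 0.77 with ACTA2. CNN1 ran against TPM2, at -0.91, against MYL9, at -0.84, and against CALD1, at -0.73. The tropomyosins TPM1 and TPM2 were at -0.047 with each other.

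**Figure D4:**
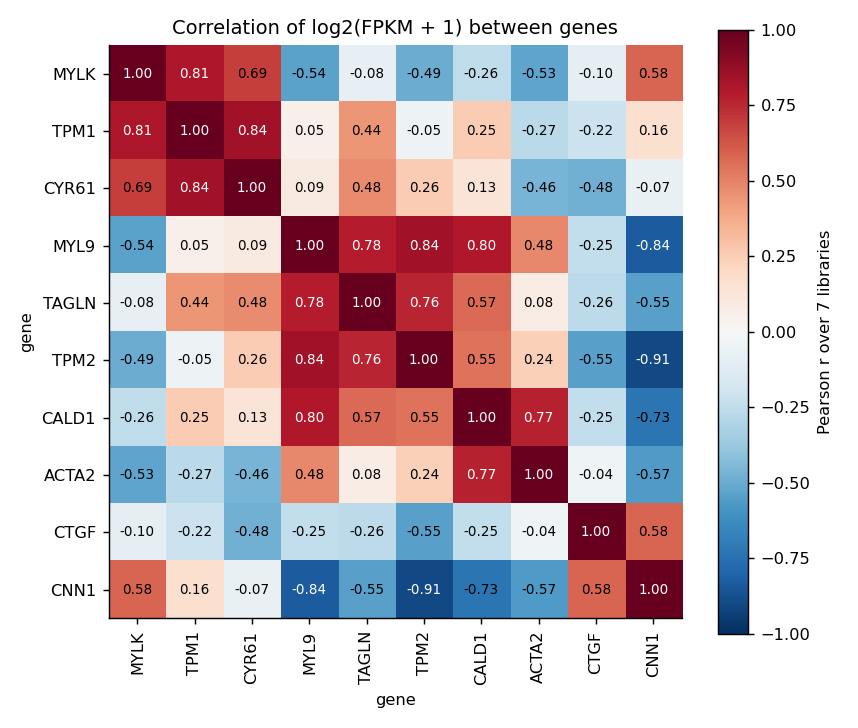
Pearson correlation of log2(FPKM + 1) over 7 libraries for every pair of the 10 genes (rows and columns, red positive and blue negative). The block of MYLK, TPM1 and CYR61 runs from 0.69 to 0.84, the block of MYL9, TAGLN and TPM2 from 0.76 to 0.84, and CNN1 is at -0.91 with TPM2.

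The genes most like MYLK over the 7 libraries were sought among 3890 genes with a mean of at least 5 FPKM and a highest level at least 1.5 times the lowest. Those named are CLDN4 (r = 0.985), a claudin of epithelial tight junctions, MAPRE3 (0.983), a protein of growing microtubule ends, GGA2 (0.970), an adaptor of Golgi transport, and UQCC1 (0.963), an assembly factor of mitochondrial complex III. MAPRE3 was at 13.2 FPKM in Control, 15.4 and 15.1 in TRIM11-KD, 22.1 and 27.8 in KDM5C-KD, and 14.0 and 15.6 in DKD. CLDN4 was at 94.3 in Control, 117.8 and 116.5 in TRIM11-KD, 137.0 and 171.4 in KDM5C-KD, and 111.6 and 111.2 in DKD. In both the KDM5C-KD lines were the highest, with KDM5C-KD2 above KDM5C-KD1 as for MYLK. A correlation of at least 0.9 was reached by 56 genes, and TPM1 was at place 206 of the 3890. How far the 2 KDM5C-KD libraries carry these correlations was not tested.

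Other genes of the system, in lists written from general knowledge, were set against Control by the same fold rule, and no gene of them passed an adjusted p of 0.05 in any limma comparison between groups or guides. By the fold rule, 5.22% of all genes compared were higher and 3.97% lower in KDM5C-KD. The shares were 5.71% and 4.87% in DKD, and 3.25% and 2.58% in TRIM11-KD. Of 26 compared genes for myosin and its regulators (heavy and light chains, kinases and phosphatase subunits), 0 were higher and 0 lower in KDM5C-KD, and in DKD PPP1R12B, a subunit of myosin phosphatase, was lower. The list's median log2 ratio was -0.047 and -0.10 in the KDM5C-KD lines. Of 25 other actin-filament proteins, PDLIM5 alone was lower in KDM5C-KD, with 40.9 FPKM in Control and 24.1 and 22.9 in the KDM5C-KD lines. It was also at 29.4 and 15.2 in TRIM11-KD and 28.6 and 20.0 in DKD, so every knockdown line was below Control.

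Of 21 compared SRF cofactors and targets outside the 10 genes, 1 was higher in KDM5C-KD, beside 5.22% of all genes, and 0 were lower, beside 3.97%. The higher gene was IER3, an immediate early gene, at 35.8 FPKM in Control and 57.3 and 63.5 in KDM5C-KD. It was at 88.8 and 61.8 in TRIM11-KD and 61.0 and 46.1 in DKD. In DKD the immediate early genes EGR1 and IER2 were lower, beside 4.87% of all genes. In the limma fit for the KDM5C guide, 6 of the 21 had an unadjusted p under 0.05, beside 11.1% of all genes. For the TRIM11 guide 5 did, beside 10.7%. Between KDM5C-KD and DKD 5 did, beside 11.7%. Between KDM5C-KD and TRIM11-KD 3 did, beside 9.82%, and between DKD and TRIM11-KD 3, beside 7.03%. The list's median log2 difference for the KDM5C guide was -0.10. Of 26 YAP and TEAD factors and targets, 0 were called in either direction in KDM5C-KD. In TRIM11-KD 4 of the 26 were higher, F3, GADD45A, NUAK2 and TGFB2, beside 3.25% of all genes, and FOXF2 was lower, beside 2.58%. In DKD 3 were higher, IGFBP3, GADD45A and NUAK2, beside 5.71%. Of the 2 compared genes among the other CCN family members, WISP2 was higher in TRIM11-KD and NOV lower in KDM5C-KD and in DKD.

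The TGF-beta pathway, a known inducer of contractile genes, had 1 gene higher (TGFBI) and 3 lower (PMEPA1, LTBP1 and BAMBI) of 18 in KDM5C-KD, beside 5.22% higher and 3.97% lower of all genes. In TRIM11-KD THBS1 was higher, beside 3.25%, and PMEPA1 and LTBP1 were lower, beside 2.58%. In DKD TGFBI and THBS1 were higher, beside 5.71%, and TGFBR1 and LTBP1 were lower, beside 4.87%. TGFBI, a matrix protein named for its induction by TGF-beta, was at 60.7 FPKM in Control and 88.8 and 95.3 in TRIM11-KD. It was at 93.7 and 97.2 in KDM5C-KD and 120.6 and 133.6 in DKD, so every knockdown line was above Control. PMEPA1, an inhibitor of SMAD signalling that TGF-beta induces, was at 17.2 in Control, 11.3 and 4.75 in the KDM5C-KD lines, 10.9 and 6.86 in the TRIM11-KD lines, and 23.1 and 7.42 in the DKD lines. PMEPA1 was thus higher in the first than in the second line of each knockdown, as TAGLN and TPM2 were. The list's median log2 ratio was -0.16 and -0.70 in the KDM5C-KD lines, and -0.047 and -0.41 in the DKD lines. In the lists written as markers, EPCAM, an epithelial adhesion molecule, was at 4.03 in Control and 10.3 and 12.1 in KDM5C-KD and 12.3 and 12.02 in DKD, and its part in the other results was not tested.

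**Figure D5:**
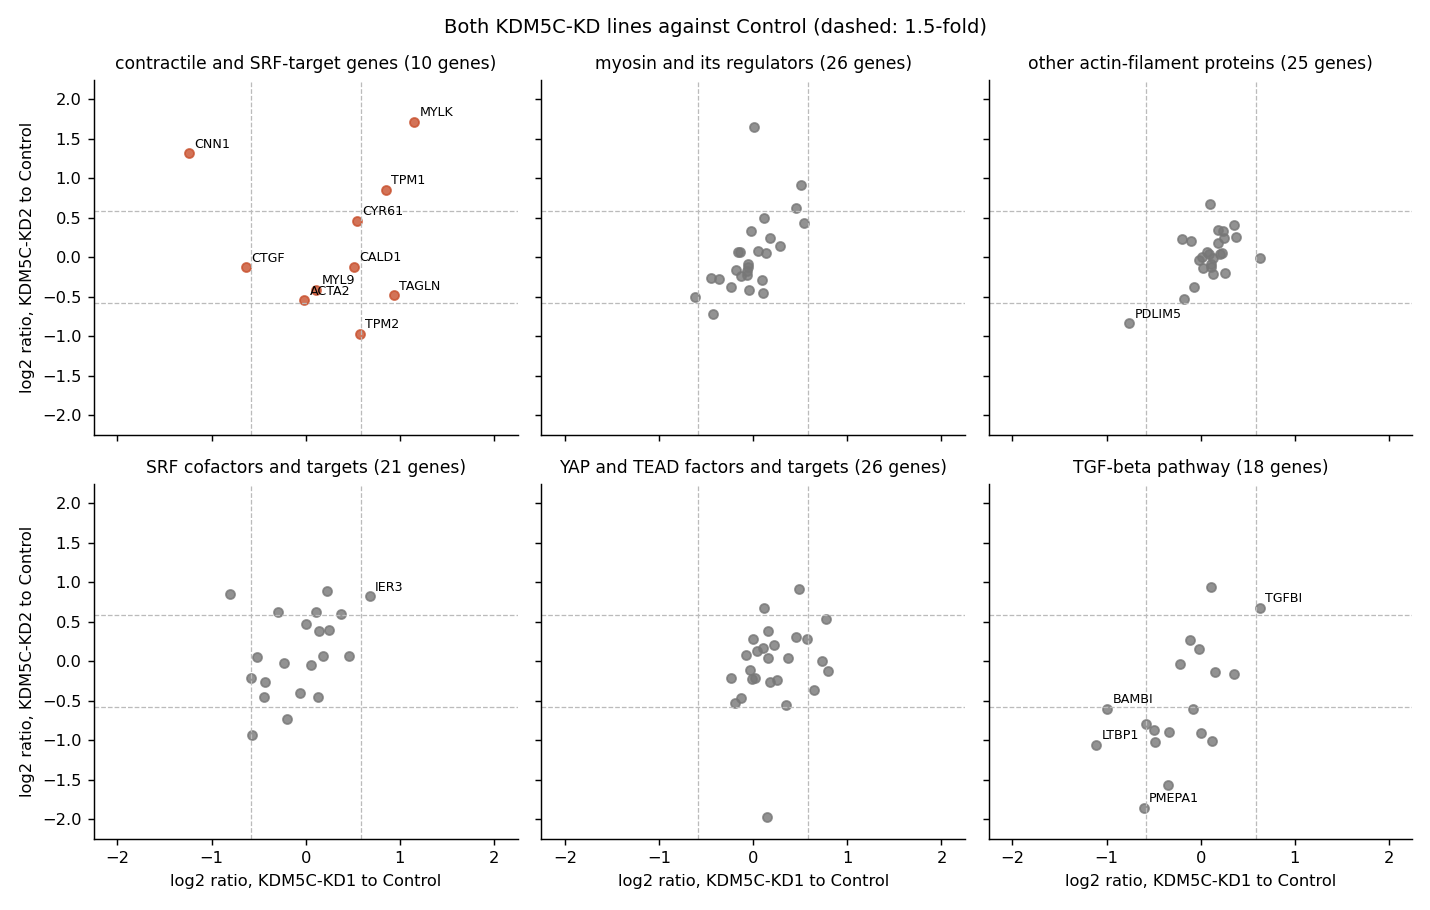
log2 ratio to Control of single genes in KDM5C-KD1 (horizontal axis) and KDM5C-KD2 (vertical axis) for the 10 genes and 5 lists of related genes, each point a gene, with dashed lines at 1.5-fold and names for the 10 genes and for genes past both lines in the same direction. MYLK and TPM1 lie in the upper right corner, TAGLN and TPM2 to the lower right, CNN1 to the upper left, and most genes of the other lists between the dashed lines.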

How the data were processed

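RNA was sequenced from 7 MDA-MB-231 lines as paired-end, poly(A)-selected libraries without strand. After FastQC and Cutadapt, the authors aligned the reads to hg19 (HISAT2) and computed FPKM values with Cufflinks at default settings, and the annotation is not given in the sources used here. The submitters' processing notes also name Bowtie 0.12.2 and the builds mm8 and mm10. The deposited FPKM values carry no read numbers, which leaves depth unknown and allows no counting interval. Of 26006 rows, 25 symbols turned into dates were left out and 1456 rows that share a symbol with a higher row were dropped. Total FPKM per library was 493543 to 513462.

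Members and gene lists were chosen with earlier results of these data known. Limma 3.58.1 (R 4.3.3, lmFit and eBayes with a trend) was run on log2(FPKM + 1), with a pseudocount of 1, for genes with a mean of at least 0.5 FPKM, with 3 residual degrees of freedom over the 6 knockdown libraries and 4 over all 7, and was checked on simulated data. A fold change on this scale understates that of low genes. P-values measure the spread between lines, since separate cultures are not stated. Ratios to Control used FPKM without a pseudocount. Named genes were all 10 members, up to 3 per list and direction with the largest change among those past 1.5-fold in both KDM5C-KD lines at a mean of at least 5 FPKM, and the 5 genes most like MYLK, of which 1 is not reported here. Genes that a list count of 5 or fewer holds, MYLK-AS1 and the markers were named after their values were seen. Positions are from GENCODE for hg19, promoters from RefSeq (GRCh38.p14). Other pseudocounts, scalings, filters and folds, a fit without trend, a replicate block and leaving out each line were the alternatives tried. Mouse tumor values and the ChIP-Seq data were not analysed here. Python 3.11.15 with pandas 2.3.3, numpy 2.4.6 and matplotlib 3.10.9 was used.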

Additional observations from a re-analysis of the deposited data

How the results depend on the processing

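With 1 Control, 2 lines a group and unknown depth, differences below the gap between lines could not be seen, and no member reached an adjusted p of 0.05 in limma under any alternative, the smallest being 0.0892. Of 50 single differences between groups, 24 kept their sign under every alternative, and no reversed value had an unadjusted p under 0.05. MYLK minus its level in DKD stayed positive in KDM5C-KD, at 0.63 to 1.19 (log2), and so did the difference from TRIM11-KD, at 0.64 to 1.20. Since the study picked MYLK from these same libraries, these kept signs are no independent support. Where a value reversed or a count moved, the cause was not tested.

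Members lower than Control in TRIM11-KD numbered 0 with a pseudocount of 1 or a mean of at least 1 FPKM, and those lower in DKD 0 with a pseudocount of 1 or 0.1, a fold of 2 or a mean of at least 1. With a fold of 2, 1 member, MYLK, was higher in KDM5C-KD and 0 in DKD. Judged by a single line of each group, 1 to 2 members were lower in TRIM11-KD, 1 to 2 in KDM5C-KD and 1 to 2 in DKD, and 3 to 4 were higher in DKD. All genes called then numbered 548 to 1194, 776 to 1648, 1097 to 1552 and 1200 to 1432 in these cases, in that order, where both lines together gave 326, 502, 616 and 722. Members higher in KDM5C-KD numbered 3 by either single line, where both lines together gave 2. The genes higher among all those compared then numbered 1030 to 1454, where both lines gave 660.

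Leaving out 1 line moved the member median from -0.24 to 0.32 for KDM5C-KD minus DKD, from -0.068 to 0.26 for KDM5C-KD minus TRIM11-KD and from -0.11 to 0.15 for the TRIM11 guide. It also reversed these log2 differences, given as lowest and highest. For KDM5C-KD minus DKD they were -0.70 to 0.80 in TAGLN, -1.03 to 0.42 in TPM2 and -0.36 to 0.15 in CTGF. For KDM5C-KD minus TRIM11-KD they were -0.43 to 0.086 in MYL9, -0.29 to 0.0068 in ACTA2, -0.26 to 1.10 in TAGLN, -0.36 to 0.25 in CALD1, -1.25 to 0.19 in TPM2 and -0.080 to 0.43 in CTGF. For DKD minus TRIM11-KD they were -0.078 to 0.098 in MYLK, -0.13 to 0.54 in MYL9, -0.38 to 1.12 in TAGLN, -0.28 to 0.33 in CNN1, -0.75 to 0.30 in TPM2 and -0.24 to 0.064 in CYR61. For the KDM5C guide they were -0.14 to 0.21 in MYL9, -0.077 to 0.67 in TAGLN, -0.16 to 0.30 in CNN1, -0.46 to 0.062 in TPM2, -0.097 to 0.28 in CTGF and -0.089 to 0.28 in CYR61. For the TRIM11 guide they were -0.49 to 0.26 in TAGLN, -0.33 to 0.075 in TPM1, -0.030 to 0.69 in TPM2, -0.35 to 0.11 in CTGF and -0.26 to 0.11 in CYR61.

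With both lines of TRIM11 guide 1 left out, chosen after seeing the data because their TRIM11 mRNA was not below Control, the median for KDM5C-KD minus DKD was 0.32 and TPM2 was 0.22, MYL9 was -0.15 and TAGLN -0.27 for DKD minus TRIM11-KD, MYL9 was -0.15 and CTGF -0.053 for the KDM5C guide, and TPM2 was -0.038 for the TRIM11 guide. With a pseudocount of 0.1, CNN1 was -0.098 for DKD minus TRIM11-KD and -0.027 for the KDM5C guide. With the interaction added, CTGF was -0.049 for the KDM5C guide and CYR61 0.039 for the TRIM11 guide.

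Lines of the same number share a TRIM11 guide only between TRIM11-KD and DKD. Deviations of same-numbered lines correlated across genes at 0.371 for TRIM11-KD and DKD, 0.273 for KDM5C-KD and DKD and 0.088 for TRIM11-KD and KDM5C-KD. With the number as a replicate block, 0 members passed the adjusted threshold, and the members with an unadjusted p under 0.05 between KDM5C-KD and DKD numbered 5, among 2163 genes, where 1473 were counted without the block. For KDM5C-KD minus TRIM11-KD the genes numbered 1975 with and 1241 without it, and for DKD minus TRIM11-KD 1538 and 888, with the members' counts at 2 and 1 both ways.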
